A study of Mus musculus with 8 samples.

Results

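The killer lectin-like receptor genes are a group of C-type lectin receptor genes first known from natural killer (NK) cells and also transcribed in activated CD8+ T cells. They are described here from 8 members of 41730 gene rows: Klrc1, Klrc2, Klrc3, Klrd1, Klrk1, Klre1 and Klrg1, together with Hcst, the adaptor of the Klrk1 receptor. The members were chosen by symbol with their response to treatment in these libraries already known, so their folds and calls are a description of these libraries, are given without p-values and are no independent evidence. Messenger RNA was counted in OT-I CD8+ T cells, whose transgenic T cell receptor recognises SIINFEKL, a peptide of ovalbumin. Per the labels, these cells had been cultured with SIINFEKL-pulsed dendritic cells grown from LXR-/- bone marrow, and were then isolated by cell sorting. LXR are the liver X receptors, nuclear receptors for oxysterols, and RGX-104 is a synthetic agonist of them. Cultures received 2 uM RGX-104 (4 libraries) or the vehicle DMSO (control, 4 libraries), and the dendritic cells lacked LXR in both groups. The labels give the T cells' genotype as OT-I, and give no strain background, age, culture time or count of animals. Nothing in them says that the libraries of a group came from separate cultures, so the p-values given cover the spread among the 8 samples alone, and this may be technical.

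Klrd1 encodes CD94, which pairs with a member of the NKG2 family on the cell surface. With NKG2A, encoded by Klrc1, it forms an inhibitory receptor that recruits the phosphatase SHP-1; with NKG2C or NKG2E, encoded by Klrc2 and Klrc3, it forms activating receptors that signal through the adaptor DAP12. These pairs bind Qa-1, a nonclassical MHC molecule encoded by H2-T23, and on CD8+ T cells CD94 and NKG2A appear after antigen stimulation. Klrk1 encodes NKG2D, which recognises stress-induced ligands of the Rae-1, H60 and MULT1 families and costimulates CD8+ T cells through the adaptor DAP10, the product of Hcst.

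The 3 Klrc genes lie side by side on chromosome 6, next to Klrk1, Klrd1 and Klre1, and are close paralogs. Their promoter windows are shown because all 3 were higher with RGX-104 and because they show how far the genes are copies of one another. Each window runs from 250 bases before to 50 bases after the RefSeq transcript start (GRCm38.p6), and is printed in the direction of transcription, which is the minus strand for all 3. The windows are chr6:129678924-129679223 for Klrc1, chr6:129660507-129660806 for Klrc2 and chr6:129643239-129643538 for Klrc3. RefSeq lists 2 starts for Klrc2, and the window printed is that of the start which lines up with Klrc3; the other is chr6:129660547-129660846. Capitals mark the letters TGTGGT, the core recognised by Runx factors, which read ACCACA when they lie on the opposite strand.
Klrc1: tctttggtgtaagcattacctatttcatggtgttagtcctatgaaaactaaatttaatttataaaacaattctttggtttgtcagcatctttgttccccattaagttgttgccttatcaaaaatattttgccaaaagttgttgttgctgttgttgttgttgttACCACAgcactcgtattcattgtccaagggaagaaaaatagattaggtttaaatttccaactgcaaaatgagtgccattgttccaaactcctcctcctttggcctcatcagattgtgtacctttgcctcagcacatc
Klrc2: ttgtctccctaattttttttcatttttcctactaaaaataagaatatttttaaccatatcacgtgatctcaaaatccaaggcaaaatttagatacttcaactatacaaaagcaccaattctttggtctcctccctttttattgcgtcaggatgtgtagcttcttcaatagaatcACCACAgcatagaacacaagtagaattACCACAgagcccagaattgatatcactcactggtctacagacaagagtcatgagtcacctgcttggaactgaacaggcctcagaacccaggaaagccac
Klrc3: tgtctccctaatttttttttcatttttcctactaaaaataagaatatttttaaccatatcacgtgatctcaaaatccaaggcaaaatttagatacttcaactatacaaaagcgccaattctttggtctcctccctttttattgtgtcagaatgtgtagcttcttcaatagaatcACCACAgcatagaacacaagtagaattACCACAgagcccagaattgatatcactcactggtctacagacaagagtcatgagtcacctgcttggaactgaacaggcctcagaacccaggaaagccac
The Klrc2 and Klrc3 windows were 99% identical (296 of 299 aligned bases). Klrc1 shared 60.5% of aligned bases with Klrc2 and 61.5% with Klrc3, against 61% with the window of Klrk1. The Runx letters, searched on both strands, began 87 bases before the start of Klrc1 and 76 and 49 bases before the starts of Klrc2 and Klrc3 used here. Counted from the other Klrc2 start, the same letters lie at 36 and 9 bases before it. RefSeq windows were at hand for 6 of the 8 members, and 5 of these 6 held the letters in at least 1 window, Klrk1 and Klre1 included. That of Hcst did not, nor did the window of the second of 2 Klre1 starts. The near-identical windows of Klrc2 and Klrc3 count as 2 members here. Across 32851 mouse promoter windows of the same length, 16.8% held the Runx letters, a share of windows and not of genes. This motif was chosen after the sequences had been seen, and a match describes the letters, not a bound site. The LXR half-site AGGTCA, its direct repeat with 4 bases between and the T-box core GGTGTGA were searched in the same way. They were in no window of these 6 members, and in 16.3%, 0.0152% and 3.98% of all windows. These searches share letters, since a direct repeat holds 2 half-sites.

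Depth was even across the study, at 30642316 to 35244624 counts per library for RGX-104 and 33942140 to 37714355 for control. No 2 libraries of a group agreed within counting noise, the closest being RGX-104 libraries 2 and 3, with a chi-square per degree of freedom of 1.36. Abca1, a cholesterol exporter and textbook LXR target, averaged 125 ± 6.21 CPM (counts-per-million) in RGX-104 libraries and 1.72 ± 0.295 CPM in control libraries (SD, n = 4 each). T cell markers were abundant in sum in every library: 11 of them summed to 3395 to 3445 CPM in RGX-104 libraries and 3466 to 3584 CPM in control libraries. Cd8a averaged 809 against 877 CPM (log2 fold change -0.12 ± 0.02 SE, adjusted p = 0.00273). Of the 11, Cd2 had only 1 to 3 counts in RGX-104 libraries and 0 to 6 in control libraries. It has a scaffold copy, so its low count is not read as low expression. Of 16 NK cell markers, 12 had at most 8 counts in any library, and 5 had none. Of these 12, 5 (Klra genes) have copies on alternate scaffolds that may have taken their reads, so their low counts are not read as low expression; 7 have no such copy. The defining markers Ncr1, Klrb1c, Tyrobp and Fcer1g summed to 11 to 15 counts in RGX-104 libraries and 13 to 18 in control libraries, with Ncr1 at 0 throughout and no scaffold copy for any of the 4. All 16 summed to 53.1 to 60.8 CPM in RGX-104 libraries and 54.8 to 59.4 CPM in control libraries, almost all of it from Eomes and Gzma, which CD8+ T cells also transcribe. Myeloid and dendritic cell markers summed to 58.8 to 60.5 CPM in RGX-104 libraries and 55.8 to 60.8 CPM in control libraries, with 0 of 5 tested members called. Most of this sum was Cst3 alone, at 48.8 CPM with RGX-104 and 48.1 CPM in control, and 8 of the 14 markers had at most 8 counts in any library.

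Of the 8 members, 7 had enough counts to be tested, and 5 of these were called higher in RGX-104 libraries (edgeR, adjusted p below 0.05 over all genes); 0 were called lower. Across all 13290 tested genes, 4.82% were called higher and 4.13% lower. The 5 were the 3 Klrc genes, at 2.18- to 2.91-fold, and Klrd1 and Klrk1, at 1.34-fold each. The upper end of that range is Klrc3, which was tested through its RGX-104 libraries, as only 2 of 4 control libraries reached the filter count. In each of the 5, every RGX-104 library lay above every control library, as did 7.07% of all tested genes; 0 members lay below throughout, as did 7.45% of all. Klre1 and Hcst overlapped between the groups, and Klrg1 was at the floor of detection. These counts describe the members, which were chosen on this contrast, and nothing is read from them. In RNA from whole samples, more cells that express a gene and more RNA per cell cannot be told apart.

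Klrc1, the gene of the inhibitory NKG2A chain, had 7.96, 9.76, 8.48 and 9.20 CPM in RGX-104 libraries 1 to 4, against 3.27, 4.75, 4.94 and 3.32 CPM in control libraries 1 to 4. The lowest RGX-104 library was well above the highest control library, and the control libraries formed a lower pair (1 and 4) and a higher pair (2 and 3). Its means were 8.85 ± 0.792 CPM with RGX-104 and 4.07 ± 0.899 CPM in control (SD, n = 4 each), a log2 fold change of 1.13 ± 0.12 (SE), on 246 to 345 counts per RGX-104 library and 114 to 179 per control library. By fold, Klrc1 ranked 20 among the 13290 tested genes.

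Klrc2, the gene of the activating NKG2C chain, had 1.10, 1.30, 1.02 and 0.942 CPM in RGX-104 libraries 1 to 4, against 0.488, 0.324, 0.441 and 0.431 CPM in control libraries 1 to 4. Here too the groups stood apart, although each value rests on 30 to 46 counts with RGX-104 and 11 to 17 in control. The log2 fold change was 1.37 ± 0.22, which ranked 7 among all tested genes. Klrc3, the gene of the activating NKG2E chain, had 0.712, 0.594, 0.866 and 0.817 CPM in RGX-104 libraries 1 to 4, against 0.344, 0.236, 0.303 and 0.135 CPM in control libraries 1 to 4. Control library 4 was the lowest, and no control library reached an RGX-104 one. Its log2 fold change was 1.54 ± 0.28 (rank 6) on 21 to 28 counts per RGX-104 library and 5 to 12 per control library. Only 2 of the 4 control libraries reached the count that the filter asks for, so Klrc3 was tested through its RGX-104 libraries, where it is high.

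Reads from the Klrc genes can be hard to assign. Of the 50-base windows of Klrc1 exons, 38.1% also occur in Klrc2 and 2.64% in Klrc3, and 35% of those of Klrc3 occur in Klrc2. At 100 bases, 15.9% of Klrc1 windows occur in Klrc2 and 20.9% of Klrc3 windows do. The counting step is not given in the sources used here, so how such reads were split is not known, and the sum of the 3 genes does not depend on a split among them. Summed, the Klrc genes had 9.78, 11.7, 10.4 and 10.96 CPM in RGX-104 libraries 1 to 4, against 4.101, 5.31, 5.68 and 3.88 CPM in control libraries 1 to 4. The sum was thus apart between the groups like its parts, with means of 10.7 ± 0.807 and 4.74 ± 0.886 CPM, a ratio of 2.25. Klrc1 held 82.7 ± 1.29% of the Klrc reads in RGX-104 libraries and 85.4 ± 4.12% in control libraries. Klrc2 held 10.2% with RGX-104 and 9.22% in control, and Klrc3 7.05% and 5.41%, so the inhibitory chain took most of the Klrc reads in both groups and the shares overlapped between them. Klrc1 and Klrc3 each have a second row for a copy on an alternate scaffold, which may have taken reads from them. Those rows are not part of the sum, and their counts are not given here.

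**Figure D1:**
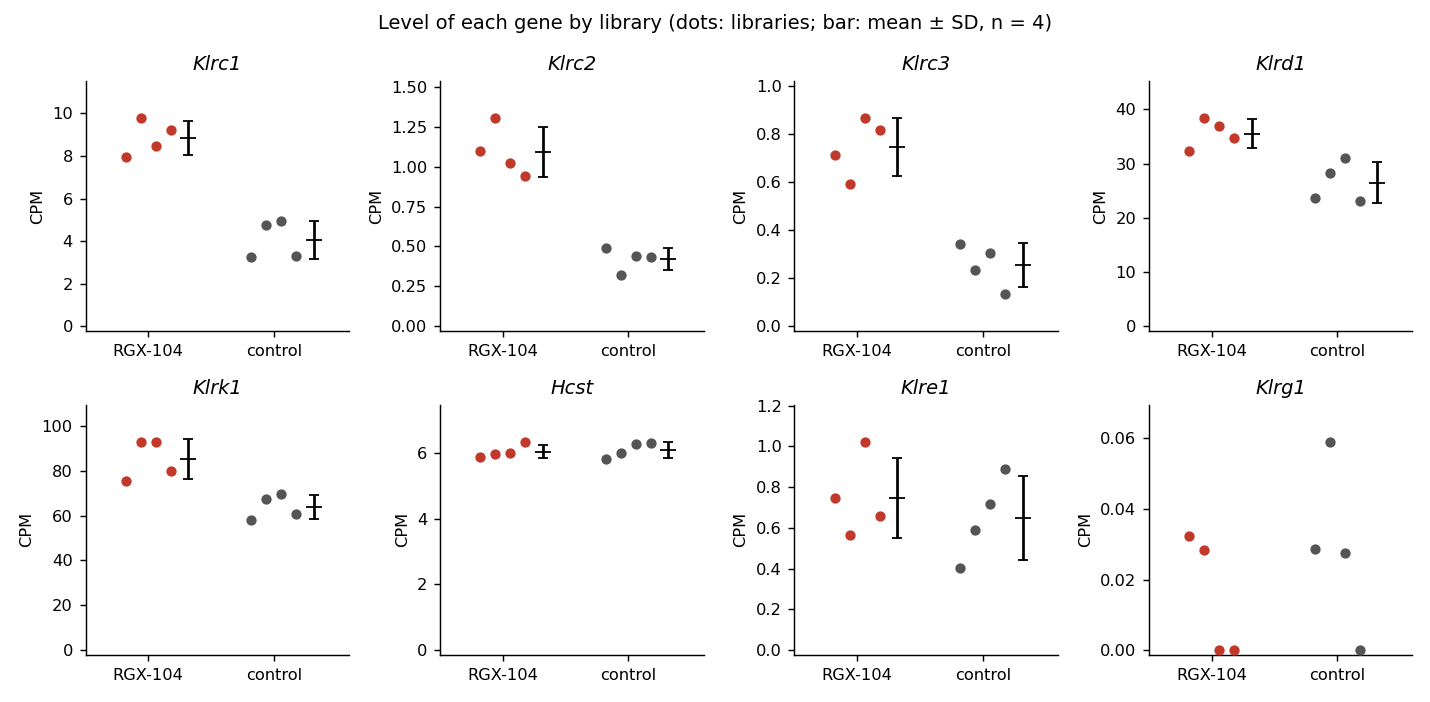
Levels of the 8 genes in each library, in CPM on linear axes that start at 0, with RGX-104 on the left and control on the right of each panel; points are libraries, and bars give the mean and SD of 4 libraries. The groups are apart for Klrc1, Klrc2, Klrc3, Klrd1 and Klrk1 and overlap for Klre1 and Hcst; Klrg1 has at most 2 counts in any library.

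Klrd1, the gene of the CD94 chain that all 3 NKG2 products need, had 32.2, 38.3, 36.9 and 34.7 CPM in RGX-104 libraries 1 to 4, against 23.7, 28.2, 31.0 and 23.1 CPM in control libraries 1 to 4. The groups did not overlap, but RGX-104 library 1 and control library 3 lay close together. Its means were 35.5 ± 2.65 CPM with RGX-104 and 26.5 ± 3.76 CPM in control, a log2 fold change of 0.43 ± 0.10. By fold it ranked 420 among tested genes.

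Klrk1, the gene of NKG2D, had 75.4, 92.8, 92.8 and 79.9 CPM in RGX-104 libraries 1 to 4, against 57.9, 67.2, 69.5 and 60.7 CPM in control libraries 1 to 4. RGX-104 libraries 2 and 3 were the highest, and the groups were apart. The means were 85.2 ± 8.91 CPM with RGX-104 and 63.8 ± 5.47 CPM in control, a log2 fold change of 0.42 ± 0.09, rank 434. The calls of Klrd1 and Klrk1 were near the threshold. Both were lost without control library 1, 2 or 4, or without RGX-104 library 2, 3 or 4, which left 3 members called; over all single left-out libraries the log2 fold change stayed at 0.37 to 0.51 for Klrd1 and 0.37 to 0.47 for Klrk1. With libraries 1 and 4 and libraries 2 and 3 of RGX-104 each summed into 1, as close pairs, these calls were also lost, at 0.42 for each gene.

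Hcst, whose product DAP10 carries the signal of NKG2D, had 5.89, 5.97, 6.00 and 6.35 CPM in RGX-104 libraries 1 to 4, against 5.82, 6.01, 6.29 and 6.33 CPM in control libraries 1 to 4. The ranges lay over one another, and of the tested members this gene had the smallest spread within groups (coefficient of variation 3.32% with RGX-104 and 3.95% in control). Its log2 fold change was -0.02 ± 0.08, a difference not detectable at this spread; it turned positive without control library 4 (0.00216) and with 1 surrogate variable (0.0359). Hcst is also the only member away from chromosome 6, at chr7:30417712-30419854.

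Klre1 encodes a receptor chain that lacks a signalling motif of its own and, in the rat, pairs with the products of Klri1 and Klri2. It had 0.744, 0.566, 1.02 and 0.660 CPM in RGX-104 libraries 1 to 4, against 0.401, 0.590, 0.717 and 0.889 CPM in control libraries 1 to 4. The groups overlapped over most of their range, with a log2 fold change of 0.19 ± 0.25 on 20 to 33 counts per RGX-104 library and 14 to 33 per control library; without RGX-104 library 3 it was -0.00049. Klrg1, an inhibitory receptor for cadherins that marks short-lived effector T cells, had 1, 1, 0 and 0 counts in RGX-104 libraries 1 to 4, against 1, 2, 1 and 0 counts in control libraries 1 to 4. All 8 values are under 3 counts, the limit that a count of 0 allows, which is 0.0849 to 0.0971 CPM in RGX-104 libraries and 0.0809 to 0.0884 CPM in control libraries, counting error only. It was not tested and no fold is given.

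Levels of different genes were compared per kilobase of exon. In RGX-104 libraries the order was Klrd1 (27.7 CPM per kb), Klrk1 (11.9), Hcst (8.38), Klrc1 (4.46), Klrc3 (1.02), Klre1 (0.214), Klrc2 (0.188) and Klrg1 (0.0107). In control libraries Klrd1 (20.7 CPM per kb) again came first. It was followed by Klrk1 (8.89), Hcst (8.47), Klrc1 (2.05), Klrc3 (0.346), Klre1 (0.186), Klrc2 (0.0725) and Klrg1 (0.0204). Neighbours whose ranges overlapped were Klrk1 and Hcst in control libraries, where their ratio was 0.963 to 1.12, Klrc3 and Klre1 in control libraries, and Klre1 and Klrc2 in RGX-104 libraries. Per kilobase of the longest coding transcript, Klre1 (0.502) stood above Klrc3 (0.356) in control libraries, with overlapping ranges. On that scale Klrk1 (19.97) stood apart from Hcst (13.8) in control libraries, at 18.1 to 21.7 against 13.2 to 14.3 CPM per kb, so these 2 steps of the order depend on the length used. The places of Klrc1, Klrc2 and Klrc3 also depend on how reads were split among them, which is not known.

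Set against its partner Klrd1 on the per-kilobase scale, the sum of the Klrc genes was 20.5 ± 1.00% of Klrd1 in RGX-104 libraries and 11.9 ± 0.840% in control libraries (SD, n = 4 each). The values were 20.5, 19.9, 19.5 and 21.8% in RGX-104 libraries 1 to 4, against 11.9, 12.6, 12.3 and 10.7% in control libraries 1 to 4, so the groups stood far apart. Within control this ratio varied less (coefficient of variation 7.08%) than the summed Klrc level (18.7%) or Klrd1 (14.2%). Klrk1 relative to Klrd1 was 0.427 ± 0.0169 with RGX-104 and 0.432 ± 0.0280 in control, with overlapping ranges. Klrk1 relative to Hcst, receptor over adaptor, was 1.42 ± 0.163 with RGX-104 and 1.05 ± 0.0803 in control, and there the ranges did not meet (1.27 to 1.56 against 0.963 to 1.12). The level of a ratio depends on the lengths used: per kilobase of the longest coding transcript, Klrc over Klrd1 was 15.3 ± 0.705% with RGX-104 and 8.83 ± 0.566% in control, and Klrk1 over Klrd1 was 0.688 ± 0.0272 with RGX-104 and 0.697 ± 0.0452 in control. Klrk1 over Hcst was 1.95 ± 0.224 with RGX-104 and 1.44 ± 0.110 in control on that scale. Length changes no comparison between the groups for a ratio of 2 genes, and the Klrc sum over Klrd1 stood at 1.72 or 1.73 times control by either length. These ratios combine members chosen on this contrast and carry no test. The per-kilobase Klrc sum divides each gene by its own exon length (Klrc1 1984, Klrc2 5812 and Klrc3 736 bases). Unlike the sum of reads, it therefore depends on how reads were split among the 3 genes, which is not known.

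**Figure D2:**
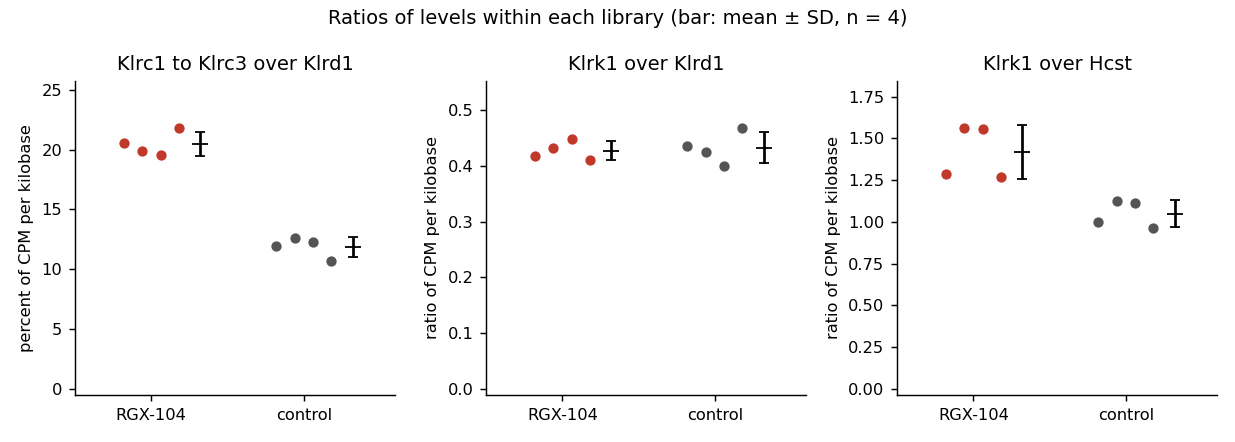
Ratios between members per library, from CPM per kilobase of exon, with RGX-104 left of control; points are libraries, and bars give the mean and SD of 4 libraries. Klrc relative to Klrd1 averages 20.5% with RGX-104 and 11.9% in control, and Klrk1 relative to Klrd1 overlaps between the groups.

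Among libraries of a group, Klrd1 and Klrk1 were on the same side of their group means in 8 of 8 libraries, and Klrc1 was on the same side as each of them in 6 of 8. Klrd1 and Hcst shared a side in 3 of 8, and Klrc1 and Hcst in 5 of 8. RGX-104 library 2 was the highest of its group for Klrc1, Klrc2, Klrd1 and Klrk1. RGX-104 library 1 was the lowest of its group for 4 of the 7 tested members, and control library 3 was above its group mean for all 7. The low-count genes Klrc2, Klrc3 and Klre1 shared a side with Klrc1 in 3, 4 and 2 of 8 libraries. These are counts over few libraries that share their depth scaling, and they carry no test.

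**Figure D3:**
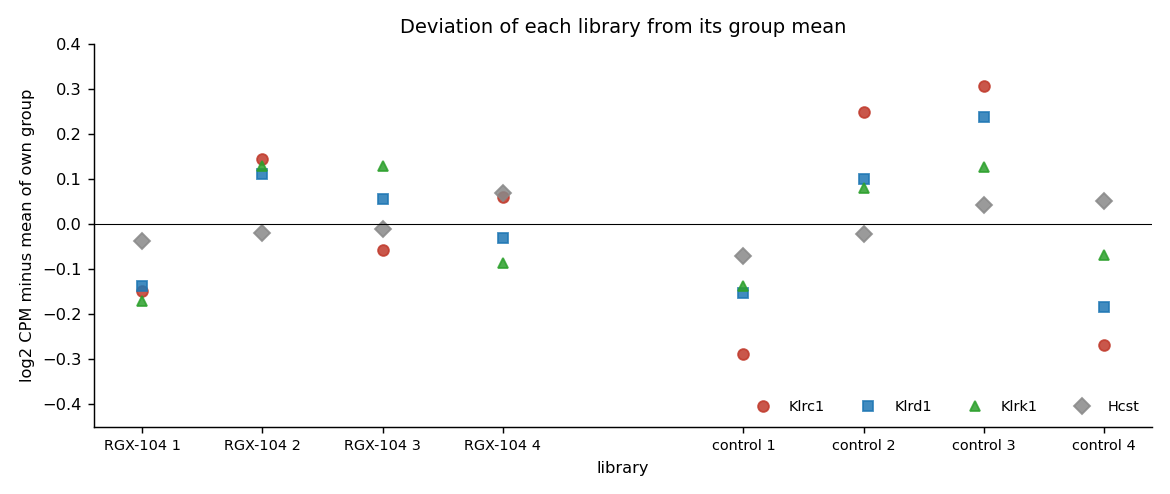
Deviation of Klrc1, Klrd1, Klrk1 and Hcst from the group mean, in log2 units, for each library, with RGX-104 libraries left of control libraries. Klrd1 and Klrk1 lie on the same side of 0 in 8 of 8 libraries, and Hcst stays near 0.

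The profile most like that of Klrc1 was looked for among 9899 other genes whose mean log2 CPM was 1 or more, by the root mean square difference of centred log2(CPM + 0.5) over the 8 libraries. The nearest were Mpp2, a membrane scaffold protein (0.130), Arl4c, a small GTPase of the ARF family (0.141), Sema4a, a semaphorin (0.147), Lgals3, the lectin galectin-3 (0.172), and Endou, an endoribonuclease (0.177). The deviation of Klrc1 from its own mean was 0.559 on this scale. The choice by profile fixes that these genes differ between the groups as Klrc1 does. Arl4c, for one, was at 104 ± 6.11 CPM in RGX-104 libraries and 48.3 ± 2.64 CPM in control libraries.

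The tested genes around the members on the chromosome are described next. Of 70 genes that start within 1 Mb of Klrd1, 16 were tested, 6 of them members. Of the 10 others, 2 were called higher and 0 lower (20% called, against 8.95% of all tested genes in either direction), and their median log2 fold change was 0.09. Clec2i, a C-type lectin-related ligand gene of the same complex, averaged 18.7 ± 1.21 CPM in RGX-104 libraries and 15.03 ± 1.03 CPM in control libraries (log2 fold change 0.31 ± 0.06, adjusted p = 0.000638). Klri2, a receptor gene beyond Klrc1 in the same cluster, averaged 0.991 ± 0.129 CPM in RGX-104 libraries and 0.594 ± 0.190 CPM in control libraries (0.73 ± 0.23, adjusted p = 0.0420). The call of Klri2 was lost without any single library other than control 4 (adjusted p 0.0563 to 0.141), and the gene has a scaffold copy. Gabarapl1, an autophagy gene between the lectin genes, had a log2 fold change of 0.02 ± 0.04, Clec2d, which encodes a ligand of NK receptors, 0.01 ± 0.04, and the activation marker Cd69 -0.07 ± 0.10. The 2 called genes that are not members, Clec2i and Klri2, are lectin genes, and other lectin genes there were not called. The members were chosen on this contrast, so their calls are no evidence about the region.

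**Figure D4:**
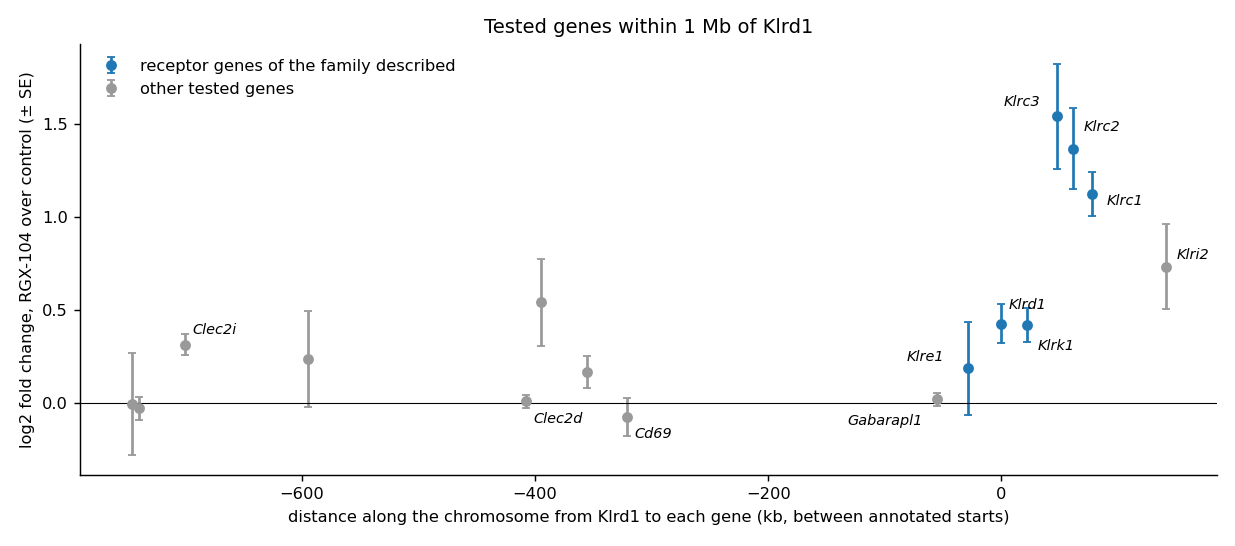
Log2 fold change (RGX-104 over control, with SE) of the 16 tested genes within 1 Mb of Klrd1, against the distance of each gene's start from that of Klrd1. Members and other genes have separate colours; the largest values are those of Klrc3, Klrc2 and Klrc1, and Clec2d, Cd69 and Gabarapl1 lie near 0.

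Outside the 8 members, few genes of the wider lectin complex had enough counts to test. Of 35 other C-type lectin genes of the complex, 5 were tested, with 2 called higher (Klri2 and Clec2i), 0 lower and a median log2 fold change of 0.01, beside 0.00 for all tested genes. Of all tested genes, 4.82% were called higher and 4.13% lower. The 11 Klra genes, which encode the Ly49 receptors of NK cells, and the 5 Klrb1 genes had at most 6 counts in any library. Scaffold copies exist for 9 of the 11 Klra genes, whose low counts are therefore not read as low expression, and for 0 of the 5 Klrb1 genes. Klri1 had 0 counts and a scaffold copy. Klrg2, a lectin gene outside the complex that the list includes, had 1.67 ± 0.363 CPM with RGX-104 and 1.73 ± 0.267 CPM in control.

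Of 17 ligand genes, 12 were in the table and 3 were tested, with 0 called higher and 1 lower, beside 4.82% and 4.13% of all tested genes. H2-T23, the gene of Qa-1 to which the CD94 pairs bind, averaged 256 ± 8.47 CPM in RGX-104 libraries and 273 ± 6.30 CPM in control libraries (log2 fold change -0.09 ± 0.03, adjusted p = 0.0393). It has 2 scaffold copies, and its call was lost without control library 1, 3 or 4 or RGX-104 library 2, 3 or 4 (adjusted p 0.0561 to 0.163). Raet1d, a Rae-1 ligand of NKG2D, had 1 to 7 counts in RGX-104 libraries and 2 to 10 in control libraries. H2-K1 (2.16 CPM with RGX-104 and 2.27 CPM in control) and H2-D1 (at most 2 counts) have 3 scaffold copies each. H2-M3 and Ulbp1, at 0 counts, have such copies too. Low counts of these 4 genes are therefore not read as low expression.

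Of 27 adaptors and signalling molecules of the receptors, 25 were tested, 1 was called higher and 1 lower (8% called, against 8.95% of all tested genes), and the median log2 fold change was 0.01. Ptpn6, the gene of SHP-1 to which NKG2A couples, averaged 479 ± 16.7 CPM with RGX-104 and 475 ± 8.42 CPM in control (0.01 ± 0.03). Tyrobp, the gene of DAP12 through which NKG2C and NKG2E signal, had 1 to 8 counts in RGX-104 libraries and 4 to 5 in control libraries, too few to test. Ptpn11, the gene of the phosphatase SHP-2, was lower, at 178 ± 4.12 CPM with RGX-104 and 192 ± 6.92 CPM in control (-0.11 ± 0.03, adjusted p = 0.0214). Its call was lost without control library 1 or 2 or RGX-104 library 1, 2 or 4 (adjusted p 0.0570 to 0.0751). Lck, the proximal T cell receptor kinase, was higher, at 93.9 ± 1.07 CPM with RGX-104 and 87.8 ± 2.31 CPM in control (0.10 ± 0.03, adjusted p = 0.0395), and lost its call without any single library other than control 1 (adjusted p 0.0625 to 0.120).

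Transcription factors of effector and NK receptor programmes were tested for 20 of 22 genes, with 1 called higher and 3 lower and a median log2 fold change of -0.03. The share called was 20%, against 8.95% of all tested genes, in a list chosen with earlier results of these data known. Tbx21, the gene of T-bet, averaged 139 ± 5.77 CPM in RGX-104 libraries and 168 ± 7.66 CPM in control libraries (-0.27 ± 0.03, adjusted p = 6.11e-06). Its relative Eomes averaged 52.1 ± 4.09 CPM with RGX-104 and 48.2 ± 2.54 CPM in control and was not called (0.11 ± 0.05, adjusted p = 0.214). Prdm1, the gene of Blimp-1, a transcriptional repressor active in terminal effector cells, was lower (-0.37 ± 0.06, adjusted p = 0.000208), as was Myb (-0.12 ± 0.04, adjusted p = 0.0499). The call of Myb was lost without control library 2 or 3 or RGX-104 library 1, 2 or 4 (adjusted p 0.0763 to 0.169). Gata3 was higher (0.36 ± 0.07, adjusted p = 0.00132). Zeb2, a factor of terminal effector cells, averaged 6.29 ± 0.601 CPM with RGX-104 and 6.79 ± 0.465 CPM in control (adjusted p = 0.489). Runx3, whose family's core was searched in the promoters above, had 7 to 10 counts in RGX-104 libraries and 6 to 10 in control libraries and has a scaffold copy, so its low count is not read as low expression.

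Receptors of cytokines that can raise CD94 and NKG2 genes were all tested: of 16, 4 were called higher and 5 lower, with a median log2 fold change of 0.00. This is 56.3% called, against 8.95% of all tested genes, in a list chosen with earlier results of these data known. Il18r1, a chain of the interleukin-18 receptor, averaged 6.18 ± 0.733 CPM in RGX-104 libraries and 3.32 ± 0.176 CPM in control libraries (0.90 ± 0.10, adjusted p = 4.75e-07). Il2rb, the chain shared by the interleukin-2 and interleukin-15 receptors, averaged 1393 ± 57.2 CPM in RGX-104 libraries and 1147 ± 11.9 CPM in control libraries (0.28 ± 0.03, adjusted p = 6.41e-08). Il12rb2, a chain of the interleukin-12 receptor, was lower (-0.25 ± 0.03, adjusted p = 5.96e-07), and so was Tgfbr3, a co-receptor of transforming growth factor beta (-0.21 ± 0.04, adjusted p = 0.00238). Il15ra, the chain particular to the interleukin-15 receptor, was also among the 5 called lower (-0.19 ± 0.04, adjusted p = 0.00172), so the chains of that receptor differed in direction.

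**Figure D5:**
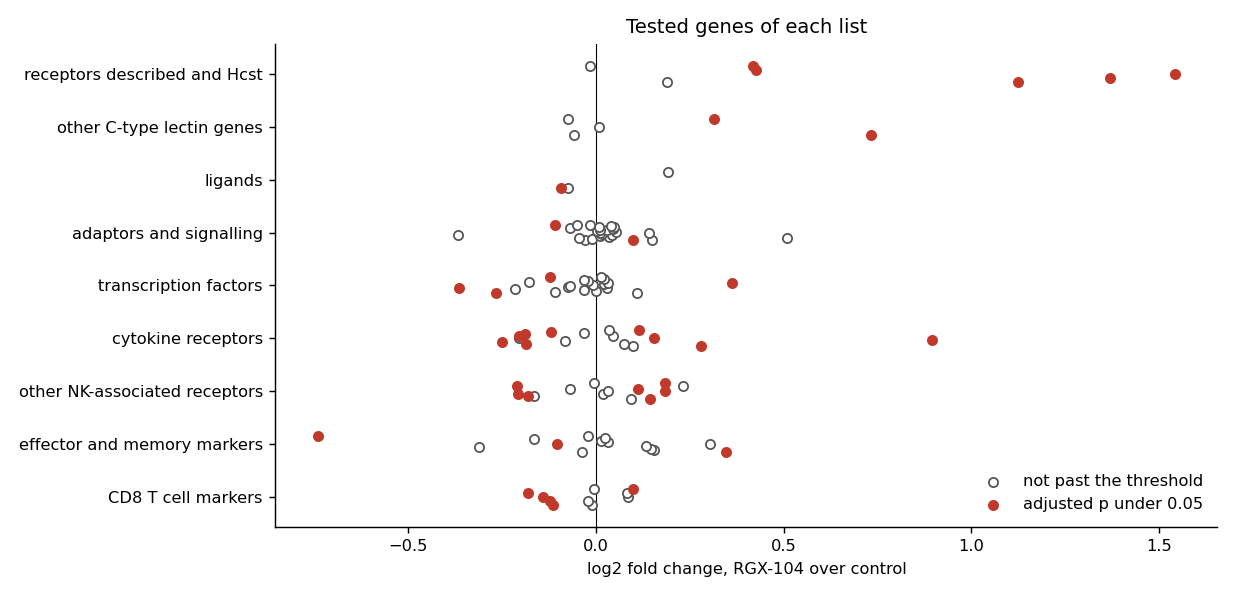
Log2 fold changes (RGX-104 over control) of tested genes by list in rows, with the members in the top row; points are genes, filled where called, with no meaning to their height within a row. The members spread between -0.02 and 1.54, and the median of each other list drawn lies between -0.07 and 0.03.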

How the data were processed

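RNA sequencing was done on 8 libraries, 4 from cultures with RGX-104 and 4 with DMSO. The authors deposited raw read counts for each gene in a single table, not normalized. The submitters' processing notes name the build GRCm38 and the tools STAR 2.7.5, cutadapt 2.10, DESeq2 1.4 and R 4.1.0. How reads were counted, with which annotation and strand option, is not given in the sources used here. RGX-104 columns could be matched to their group but not to single samples, so libraries are numbered by column.

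Genes were kept by filterByExpr (minimum count 10, minimum total 15), and edgeR 4.0.16 (R 4.3.3) was run with its quasi-likelihood F-test, robust fitting and TMM scaling over all 13290 kept genes, with Benjamini-Hochberg adjustment and a threshold of 0.05. CPM used TMM-scaled library sizes, and the SE of a log2 fold change came from the F statistic. Exon lengths came from GENCODE annotation of GRCm38, coordinates and promoters from RefSeq (GRCm38.p6). No member's exons overlapped those of another gene.

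The members and gene lists were chosen with earlier results of these data known. Named list genes were, by rule, up to 4 called genes of largest fold per list and genes that the receptor pairs need; 1 gene that the rule names is not reported here. The script was tested on simulated data. Alternatives were DESeq2 1.42.0, limma-voom (limma 3.58.1) with sample weights, other scalings and filters, summed Klrc genes, summed close libraries, 1 surrogate variable (sva 3.50.0), leaving out each library and, added after the data were seen, a block by column number.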

Additional observations from a re-analysis of the deposited data

Results flagged for a closer look

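In 3 of 82 groups of 4 libraries checked, over 41 genes, 1 library stood far from the other 3; chance flags about 1 in 20 groups, or 4.1 here, and none of the 3 genes is a receptor member. Klrg2 had 1.13 CPM in RGX-104 library 2, with 1.81 to 1.92 CPM in the other RGX-104 libraries. Ptpn11 had 185 CPM in RGX-104 library 3, with 176 to 177 CPM in the others. Gzma, the granzyme A gene, had 2.69 CPM in RGX-104 library 1, with 4.61 to 4.84 CPM in the others. RGX-104 library 2 was also the highest of its group for Klrc1, Klrc2, Klrd1 and Klrk1, and RGX-104 library 1 the lowest for 4 members.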

How the results depend on the processing

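Klrc1, Klrc2 and Klrc3 were higher under all alternatives that gave them a value (17, 16 and 15), at log2 fold changes of 1.04 to 1.23, 1.27 to 1.44 and 1.32 to 1.72. Klrd1 lost its call in 8 of 18 alternatives and Klrk1 in 9 of 18. Members called higher, 5 in the fit reported, were 3 with a minimum count of 50, with the Klrc genes summed into 1 feature, with close RGX-104 pairs summed and with 1 surrogate variable, and 3 to 5 with 1 library left out. The stricter filter and the summing remove Klrc rows by construction; the cause of the other losses was not tested. Hcst reversed to 0.0359 with 1 surrogate variable and to 0.00216 without control library 4, and Klre1 to -0.00049 without RGX-104 library 3; with 1 library left out Hcst was -0.0390 to 0.00216 and Klre1 -0.00049 to 0.38. Genes called higher were 358 with close pairs summed and 425 with 1 surrogate variable, against 640; genes called lower were 264 and 365, against 549. With 1 library left out they were 462 to 719 and 377 to 621. List genes called higher were 7 with close pairs summed, against 13, and 8 to 13 with 1 library left out, the 8 without RGX-104 library 1. Neighbours called higher were 1 with DESeq2, with a minimum count of 50 and with close pairs summed, against 2, and 1 to 2 with 1 library left out. The summed Klrc ratio stayed at 2.13 to 2.41. The spread of members within groups, computed under other scalings and left-out libraries after the data were seen, was a median coefficient of variation of 10.5 to 15.3%. The median log2 fold change of all tested genes was 0.0127 under upper quartile scaling, against 0.000716 in the fit reported. Sample titles share no numbers between the groups, but the columns of both groups are numbered 1 to 4. Whether equal column numbers pair libraries is not known. Deviations from the group means correlated at 0.141, 0.0746, 0.0430 and 0.157 for numbers 1 to 4 (across genes, which are not independent replicates). Pairs of unequal number correlated at -0.117 to 0.0447. Each RGX-104 library correlated best with the control library of its own number, while control library 3 correlated best with RGX-104 library 4 (0.0447). A replicate block by column number, added after the data were seen, called 1109 genes higher and 906 lower, 22 list genes higher, 5 members and 2 neighbours. With this block the SE was 0.043 for Klrd1 and 0.030 for Klrk1, against 0.10 and 0.09 in the fit reported. Their log2 fold changes were 0.43 and 0.42, so the closeness of these 2 calls to the threshold depends on whether libraries are paired, which was not tested. Depth limits Klrc2, Klrc3 and Klre1, at under 50 counts per library, and Klrg1, at 2 counts or fewer.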

Other observations

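Other NK-associated receptors and effector genes of CD8+ T cells changed in both directions. Of 19 such receptors and related genes, 14 were tested, 4 were called higher and 3 lower, with a median log2 fold change of 0.03. The share called was 50%, against 8.95% of all tested genes, in a list chosen with earlier results of these data known. At the high counts of most of its genes, small differences can pass the threshold. Tnfrsf9, the costimulatory receptor 4-1BB, averaged 192 ± 5.02 CPM in RGX-104 libraries and 169 ± 6.49 CPM in control libraries (0.18 ± 0.03, adjusted p = 0.00019, with a scaffold copy). Slamf7, a receptor of the SLAM family, was higher (0.18 ± 0.03, adjusted p = 0.000913). Nkg7, a cytotoxic granule gene, averaged 178 ± 4.55 CPM in RGX-104 libraries and 206 ± 7.50 CPM in control libraries (-0.21 ± 0.03, adjusted p = 2.33e-05). Cd96, a receptor for the nectin-like CD155, was also lower (-0.21 ± 0.03, adjusted p = 4.32e-05).

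Of 18 terminal effector and memory markers, 14 were tested and 2 were called lower, as were 4.13% of all tested genes. Ccr7, a chemokine receptor used in lymph node homing, was lower (-0.10 ± 0.03, adjusted p = 0.0125). Ccr7 lost its call without control library 3 or RGX-104 library 1 (adjusted p 0.0517 and 0.0537). Gzma averaged 4.21 ± 1.02 CPM in RGX-104 libraries and 7.07 ± 1.10 CPM in control libraries (-0.74 ± 0.17, adjusted p = 0.0250), and lost its call without control library 2, 3 or 4 or RGX-104 library 3 or 4 (adjusted p 0.0505 to 0.0687). Cx3cr1, which like Klrg1 marks terminal effector cells, had 0 to 4 counts in RGX-104 libraries and 0 to 7 in control libraries. Of the 10 tested CD8 T cell markers, 1 was called higher and 4 lower (50% called, against 8.95% of all tested genes). Among those lower was Cd3e (-0.14 ± 0.03, adjusted p = 0.00295), and the median log2 fold change of the 10 was -0.02. These markers were also listed with earlier results known, and most have high counts, at which small differences can pass the threshold.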
